A study of Homo sapiens with 18 samples.

Results

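The genes described here are the subunits of the mitochondrial respiratory chain and of ATP synthase, in a human monocytic leukaemia cell line, THP-1, in which TRAFD1 was knocked down and the cells were stimulated with lipopolysaccharide (LPS). The rule that chose them uses gene names and no measured value, but it was set with earlier results of these data known. The mitochondrial set holds the 13 protein-coding genes of the mitochondrial genome. The nuclear set holds the 91 protein-coding genes whose symbols begin with NDUFA, NDUFB, NDUFC, NDUFS, NDUFV, UQCR, COX4I, COX5, COX6, COX7, COX8 or ATP5, or are SDHA, SDHB, SDHC, SDHD or CYC1, leaving out pseudogenes and the NDUFAF assembly factors. Together they are 104 of the 63677 genes counted. By complex, the mitochondrial genes encode 7 subunits of complex I, 1 of complex III, 3 of complex IV and 2 of ATP synthase (complex V), and the nuclear genes belong to complex I (38), complex II (4), complex III (10), complex IV (19) and complex V (20). NDUFA4 and NDUFA4L2 were placed in complex IV.

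The study asked what reduced TRAFD1, a zinc finger protein that dampens innate immune signalling, does to the transcriptome of resting and LPS-stimulated monocyte-like cells. It compared 3 treatments in 2 conditions, with 3 libraries in each of the 6 groups. KD cells received 25 nM of an siRNA against TRAFD1, and SCR cells received 25 nM of a non-targeting siRNA. WT cells received no siRNA: the treatment protocol gives them the transfection mix alone, whereas the sample characteristics call them untreated, so a shared effect of transfection cannot be told apart from one of siRNA in comparisons with WT. At 72 hours after transfection each culture was given LPS at 10 ng/ml or medium alone (unstimulated) for 4 hours. The unstimulated libraries carry the replicate numbers 1 to 3 and the LPS libraries 4 to 6. All of them come from 1 cell line. The protocol gives each treatment in triplicate and does not say whether these were separate experiments, so p-values measure the spread between these libraries alone.

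The respiratory chain passes electrons from NADH and succinate to oxygen through complexes I to IV, pumps protons across the inner mitochondrial membrane, and so drives ATP synthase. Its subunits come from separate genomes. The mitochondrial genome is transcribed from promoters on each strand as long polycistronic RNAs that are cut at the transfer RNAs and polyadenylated, whereas the nuclear genes are transcribed singly and their proteins imported. In macrophages, LPS is known to shift metabolism from oxidative phosphorylation towards glycolysis.

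The libraries were made with a 3′ tag kit (QuantSeq), which primes on poly(A) and reads the end of a transcript. The ends of the mitochondrial genes may therefore bear on what was counted, and they differ in form. In 6 of the 13 genes (MT-ND1, MT-ND2, MT-ND3, MT-ND4, MT-CO3 and MT-CYB) the genome holds only the first 1 or 2 bases of the stop codon, and the poly(A) tail supplies the rest. In the other 7 the gene as annotated holds a complete stop codon. For MT-ATP6 the last base of that codon (chrM:9207) is also the first base of MT-CO3. Whether the MT-ATP6 mRNA keeps it was not examined. The last 24 bases of some of them, 5′ to 3′ on the coding strand in GRCh37 with the bases of the stop codon in capitals, were read from the reference genome and are shown because these genes have the most distinct values below.
MT-ND1 (chrM:4239-4262, plus strand): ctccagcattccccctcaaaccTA
MT-ND2 (chrM:5488-5511, plus strand): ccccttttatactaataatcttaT
MT-CO3 (chrM:9967-9990, plus strand): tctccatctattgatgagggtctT
MT-CYB (chrM:15864-15887, plus strand): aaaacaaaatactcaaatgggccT
MT-ATP8 (chrM:8549-8572, plus strand): cattcattgcccccacaatccTAG
MT-ND4L (chrM:10743-10766, plus strand): aacctaaacctactccaatgcTAA
MT-ND6 (chrM:14149-14172, minus strand): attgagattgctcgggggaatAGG
The first 4 end at the processed end of an mRNA. The end of MT-ATP8 lies inside MT-ATP6, since the 2 genes share 46 bases of one mRNA (chrM:8527-8572), and the end of MT-ND4L lies inside MT-ND4, with 7 shared bases (chrM:10760-10766). MT-ATP8 is also the richest of the 13 in A (38.6% of its bases), with a run of 6 that lies 70 bases before its end, in capitals here.
MT-ATP8 (chrM:8488-8511, plus strand): cataaaaatAAAAAAttataacaa
MT-ND6 is the only one of the 13 on the minus strand, and its coding sequence ends against that of MT-ND5. No source says whether reads were counted by strand, so reads of MT-ND6 and antisense reads there cannot be told apart.

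The libraries held 8206023 to 22344279 gene counts. In KD cells without LPS, TRAFD1 stood at 5.37 to 11.6 CPM (counts relative to library size, scaled by the trimmed mean of M-values), below the 20.1 to 26.8 CPM of SCR cells (a log2 difference of -1.45 ± 0.23, edgeR adjusted p = 0.0277). With LPS, KD libraries held 13.8 to 15.8 CPM and SCR libraries 18.7 to 27.5 CPM, with no overlap, but this did not pass the test (log2 fold change -0.65 ± 0.22 SE, edgeR adjusted p = 0.262). All 8 monocytic markers examined had a median of at least 1 CPM, the defining T cell markers CD3E and CD3D had a median of 0, and the fibroblast marker COL1A1 had a median above 1 CPM. Throughout, "called" means an adjusted p under 0.05 by edgeR's quasi-likelihood test with Benjamini-Hochberg adjustment over 16678 tested genes, and differences and fold changes are on the log2 scale, ± their standard error (SE). Counts of members at an unadjusted p, or from DESeq2 and fits other than the main one, stand without the share of all genes. They do not show that members differ from other genes.

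All 13 mitochondrial genes and 86 of the 91 nuclear genes passed the filter on low counts. In principle a 3′ tag is counted once per transcript whatever its length, so CPM was compared between genes without a length correction. CPM is not the level of a transcript where genes overlap: MT-ATP8 averaged 373 CPM and MT-ATP6 1403 CPM, and MT-ND4L averaged 195 CPM and MT-ND4 3309 CPM. The mitochondrial genes were the more abundant set: their means over 18 libraries ran from 102 CPM (MT-ND6) to 7218 CPM (MT-CO3) with a median of 1539 CPM, and 9 of 13 were at 1000 CPM or more. In the nuclear set the median was 106 CPM, and 3 genes reached 1000 CPM. These were ATP5MG, a membrane subunit of ATP synthase (1381 CPM), UQCRB, a subunit of complex III (1266 CPM), and COX6C of complex IV (1083 CPM). The most abundant subunit of complex II was SDHC, a membrane anchor (114 CPM). Nuclear genes under 10 CPM numbered 11. Among them are the isoforms known from other tissues: NDUFA4L2 ranged over 0.278 to 2.28 CPM, COX6B2 over 0.152 to 1.47 CPM, COX7B2 over 0 to 2.62 CPM and COX8C over 0.0671 to 2.26 CPM. The lung isoform COX4I2, the muscle isoforms COX6A2 and COX7A1 and the readthrough gene NDUFC2-KCTD14 had no count in any library, which allows at most 3 counts in each, and ATP5MF-PTCD1 did not exceed 0 to 0.396 CPM. These 5 genes were not tested.

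The summed share of a library's counts described each set. The 13 mitochondrial genes took 2.38% to 2.60% in unstimulated WT, 2.50% to 2.72% in unstimulated SCR and 3.003% to 3.57% in unstimulated KD libraries. With LPS they took 2.85% to 3.25% in WT, 2.61% to 3.74% in SCR and 3.22% to 3.73% in KD. The share was thus higher with LPS than without in every WT library, the SCR and KD groups overlapped with their unstimulated counterparts, and without LPS every KD library lay above every WT and SCR library. The 91 nuclear genes moved less. They took 1.73% to 1.85% in unstimulated WT, 1.66% to 1.88% in SCR and 1.64% to 1.85% in KD, and with LPS 1.64% to 1.67% in WT, 1.57% to 1.62% in SCR and 1.63% to 1.74% in KD. With LPS, the nuclear share was lower in every WT and every SCR library than in any of the same treatment without LPS. The KD groups overlapped. Summed as scaled CPM instead, the nuclear set overlapped in WT (16652 to 17993 CPM without and 16261 to 17410 CPM with LPS). In SCR it overlapped as well (16274 to 18673 and 16050 to 16601 CPM), so the separation held for the unscaled share alone. In bulk libraries a change in the kinds of cells and a change in the RNA of each cell cannot be told apart, and a share says nothing of the absolute amount of RNA.

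**Figure D1:**
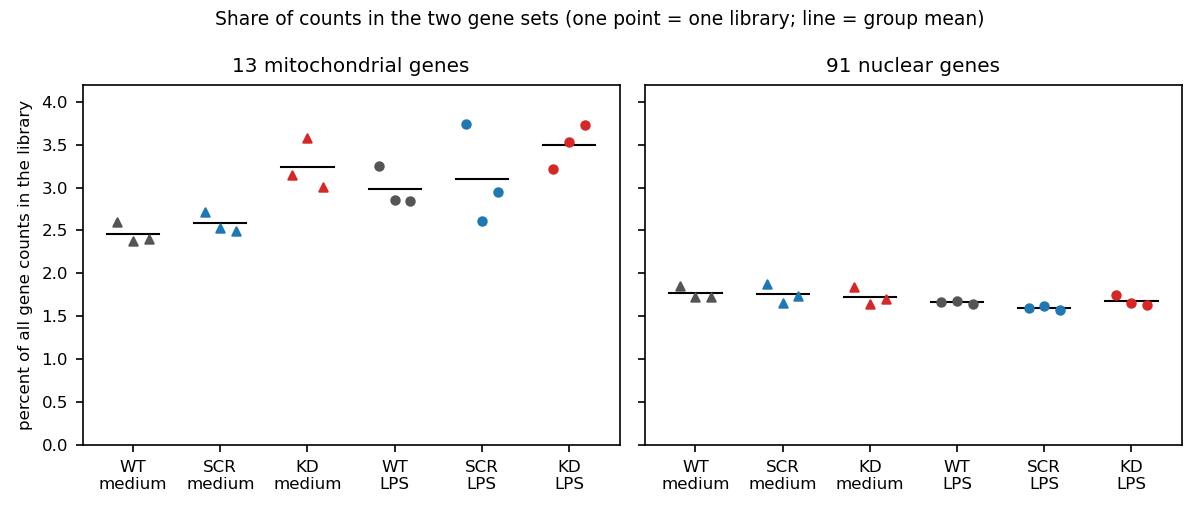
Percent of each library's gene counts in the 13 mitochondrial genes (left) and the 91 nuclear genes (right), by group; each point is 1 library, triangles are unstimulated (medium), circles are LPS, and lines are group means. The mitochondrial share ran from 2.38% to 3.74% and the nuclear share from 1.57% to 1.88%.

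The distance between the sets was also taken per library, as the mean log2 CPM of the mitochondrial genes minus that of the nuclear genes. In WT it was 3.58 to 3.79 without LPS and 4.07 to 4.46 with LPS, a difference of 0.53 between the group means. In SCR it was 3.60 to 3.75 and 4.00 to 4.70, a difference of 0.64, and in KD 3.74 to 4.33 and 4.09 to 4.46, a difference of 0.32. The WT and SCR groups did not overlap, and the KD groups did. The KD difference was 0.50 without unstimulated replicate 2 and 0.20 without unstimulated replicate 3. Unstimulated KD libraries exceeded SCR libraries by 0.29 on this scale, but the KD library closest to SCR (3.74) was within the SCR range. Without KD replicate 2 the difference was 0.11. The overlap depended on the make-up of the sets. Less MT-ATP8, MT-ND4L and MT-ND6, KD libraries stood at 4.75 to 5.17 and SCR libraries at 4.51 to 4.61. The groups still overlapped with nuclear genes of at least 10 CPM alone (KD from 3.01, SCR up to 3.02). They also did with the SDHAF assembly factors added (KD from 3.86, SCR up to 3.87). The RNA from the mitochondrial ribosomal genes, which is no member, moved with LPS as well: it stood at 5537 to 6271 CPM in unstimulated WT and 7697 to 9669 CPM with LPS, at 5889.9 to 6462 and 8892 to 12494 CPM in SCR, and at 5652 to 9097 and 7742 to 10740.0 CPM in KD. Its part in the values of the members was not tested.

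Reads of the mitochondrial genes can also fall on copies of mitochondrial DNA in the nuclear genome. Genes named as such copies held 5048 to 10755 CPM per library in sum, nearly all of it on a few of them. MTND1P23 averaged 4010 CPM, so that copies held 43.98% of the reads of MT-ND1 and its copies together. The share was 41.2% for MT-CO1, 37.9% for MT-ND6, 24.8% for MT-ATP6, 24.3% for MT-CO2 and 16.4% for MT-ND2, and under 6% for each of the other 7. The levels of those 6 genes are uncertain to that extent. Among nuclear members the same holds for NDUFV2, whose named pseudogenes held 68.2% of the combined reads, COX6A1 (39.2%), SDHA (20.2%), COX7C (19.3%), UQCRB (15.1%), ATP5F1E (11.2%) and NDUFB4 (10.8%).

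In WT cells 5 of the 7 mitochondrial genes of complex I and that of complex III were called higher with LPS. No mitochondrial gene of complex IV or V and few nuclear genes were called. MT-CYB lay just inside the threshold and MT-ATP8 and MT-CO1 just outside it, and no test compared the complexes. Of 13 mitochondrial genes 6 were called, all higher, where 14.3% of all tested genes were called, 7.01% higher and 7.26% lower. The median log2 fold change was 0.43 over the mitochondrial genes, -0.04 over the 86 nuclear genes and -0.03 over all genes. Of the nuclear genes 1 was called higher and 2 lower. LPS and unstimulated libraries did not overlap for 10 of 13 mitochondrial and 19 of 86 nuclear genes, counting both directions, against 32.5% of all genes.

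Complex I takes electrons from NADH, and MT-ND1, MT-ND2, MT-ND4 and MT-ND5 build its proton-pumping membrane arm. MT-ND1, at the quinone site, stood at 3804, 2846 and 3409 CPM in the unstimulated WT libraries 1 to 3 and at 6253, 4523 and 4476 CPM in the LPS libraries 4 to 6 (a log2 difference of 0.60 ± 0.18, edgeR adjusted p = 0.0275). MT-ND2 rose from 1812, 1983 and 1453 CPM to 3203, 2568 and 2225 CPM (a log2 difference of 0.61 ± 0.15, edgeR adjusted p = 0.00991). Neither gene's groups overlapped, and library 4 was the highest for both. MT-ND5, an antiporter-like subunit, went from 225, 189 and 200.1 CPM to 489.9, 300.0 and 320.4 CPM (a log2 difference of 0.85 ± 0.21, edgeR adjusted p = 0.00841). MT-ND6, the minus strand gene, went from 86.4, 77.01 and 85.5 CPM to 186, 128 and 133 CPM (a log2 difference of 0.84 ± 0.17, edgeR adjusted p = 0.00164), again with library 4 the highest and no overlap. MT-ND4 was called at a smaller size (a log2 difference of 0.43 ± 0.14, edgeR adjusted p = 0.0439). MT-ND3 (0.31 ± 0.14, edgeR adjusted p = 0.147) and MT-ND4L (0.47 ± 0.23, adjusted p = 0.209) were not called.

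Of complex III, MT-CYB, the cytochrome b that carries both quinone sites, was at 1086, 859.7 and 954 CPM without and 1397, 1191 and 1106 CPM with LPS, at the edge of the threshold (a log2 difference of 0.35 ± 0.12, edgeR adjusted p = 0.0499). The 3 catalytic core subunits of complex IV, which reduces oxygen, were not called: the log2 fold changes were 0.27 for MT-CO1 (edgeR adjusted p = 0.0543), 0.15 for MT-CO2 and 0.10 for MT-CO3. MT-CO3, the most abundant member, held 6115, 7355 and 6705 CPM without LPS and 7163, 7094 and 7423 CPM with it, and the groups overlapped. In ATP synthase, MT-ATP8 had the largest estimate and the widest spread, at 185, 158 and 157 CPM and then 639, 293 and 331 CPM (1.33 ± 0.45, edgeR adjusted p = 0.0531), while MT-ATP6, which forms the proton channel, differed by 0.42 ± 0.16 (adjusted p = 0.0825). For MT-ATP8 the groups did not overlap, although the test was not passed.

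**Figure D2:**
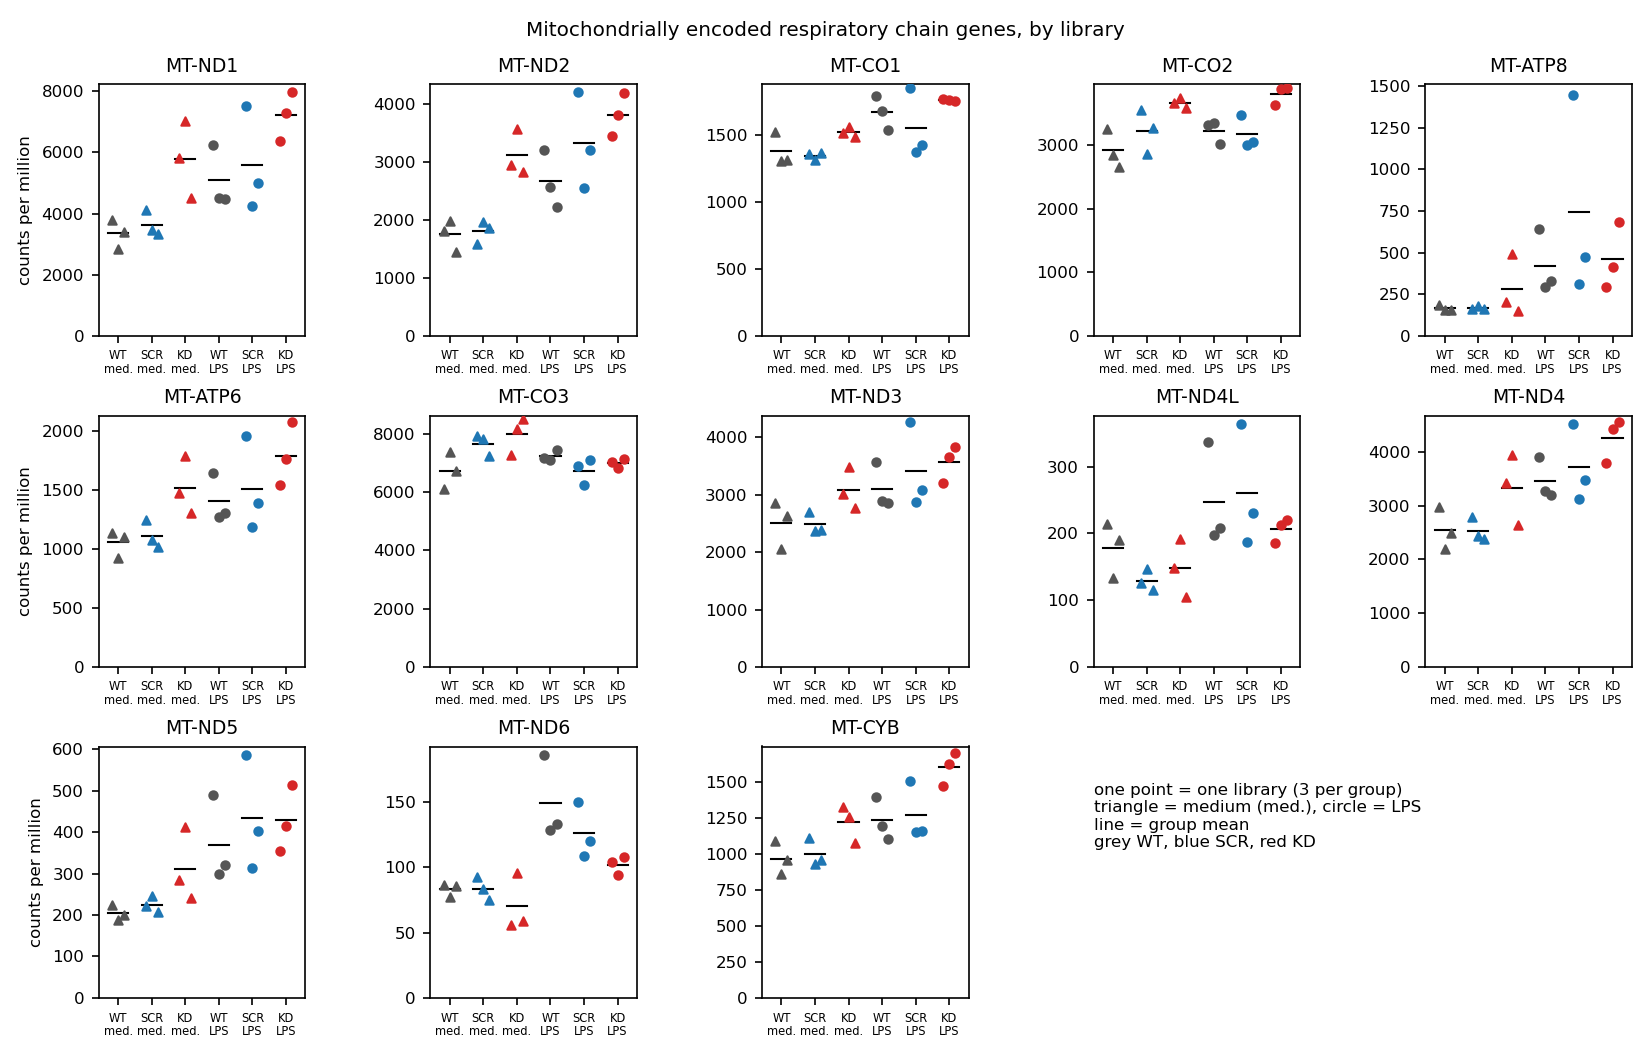
CPM of the 13 mitochondrial genes in each of 18 libraries, in genome order; triangles are unstimulated, circles are LPS, lines are means of 3 libraries, and each axis starts at 0. MT-ND1 ran from 2846 to 7965 CPM and MT-CO3 from 6115 to 8499.7 CPM, and LPS SCR replicate 4 was the highest library for MT-ATP8, at 1443 CPM.

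The nuclear genes called in WT were few. NDUFV2, which binds an iron-sulfur cluster of the NADH-oxidising arm, was at 3.84, 5.45 and 2.76 CPM without LPS and 8.95, 8.86 and 7.34 CPM with it (a log2 difference of 1.09 ± 0.26, edgeR adjusted p = 0.00587), and most reads of that name fall on its pseudogenes, as given above. COX7A2L, which joins complexes III and IV in supercomplexes, fell from 139, 130.2 and 132 CPM to 99.4, 105 and 79.5 CPM (a log2 difference of -0.50 ± 0.12, edgeR adjusted p = 0.00704), with no overlap. NDUFA8, an accessory subunit of complex I in the intermembrane space, fell from 66.1, 62.3 and 68.4 CPM to 44.6, 55.98 and 50.3 CPM (a log2 difference of -0.38 ± 0.13, edgeR adjusted p = 0.0461). All 4 subunits of complex II and 14 of 16 tested nuclear subunits of complex IV had a negative estimate, with medians of -0.27 and -0.09, and apart from COX7A2L none of them was called. The calls rested on single libraries in part. Leaving out 1 library at a time, the mitochondrial count fell to 1 without LPS replicate 4, to 2 without unstimulated replicate 3 and to 3 without unstimulated replicate 2, and the nuclear count went to 1 without LPS replicate 6 and to 5 without unstimulated replicate 2. MT-ND6 and NDUFV2 were called in all 6 of these fits, MT-ND5 was lost without LPS replicate 4 (edgeR adjusted p = 0.0858) and COX7A2L without LPS replicate 6 (adjusted p = 0.0525).

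In SCR cells all 7 mitochondrial genes of complex I, MT-CYB and MT-ATP8 were called higher with LPS, and the nuclear genes that were called all fell. Of 13 mitochondrial genes 9 were called higher and none lower, and of 86 nuclear genes 7 were called lower and none higher, where 17.2% of all genes were called, 8.64% of them higher and 8.56% lower. The medians were 0.55 for the mitochondrial and -0.05 for the nuclear genes. Libraries did not overlap for 11 mitochondrial genes, 10 higher and 1 lower, and for 23 nuclear genes, 3 higher and 20 lower, against 17.5% of all genes higher and 19.8% lower.

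All 7 mitochondrial subunits of complex I were called in SCR. MT-ND2 rose from 1593, 1963 and 1863 CPM in libraries 1 to 3 to 4197, 2558 and 3198 CPM in libraries 4 to 6 (a log2 difference of 0.88 ± 0.16, edgeR adjusted p = 0.000475). MT-ND5 rose from 221, 246 and 208 CPM to 587, 313 and 402 CPM (a log2 difference of 0.95 ± 0.21, edgeR adjusted p = 0.00367), and MT-ND1 from 4118, 3449.9 and 3327 CPM to 7512, 4263 and 5011 CPM (a log2 difference of 0.62 ± 0.18, edgeR adjusted p = 0.0193). No groups overlapped in these genes, and LPS replicate 4 was the highest library in each. MT-ND4L, which overlaps MT-ND4, had a log2 fold change of 1.01, MT-ND6 of 0.59, MT-ND4 of 0.55, MT-ND3 of 0.45 and MT-CYB of 0.35. MT-ATP8 went from 160.5, 181 and 159 CPM to 1443, 308 and 471 CPM (a log2 difference of 2.15 ± 0.46, edgeR adjusted p = 0.00264). Its LPS replicate 4 stood well above the others, and without that library its estimate was 1.23 (edgeR adjusted p = 0.045). MT-ATP6, in the same mRNA, was not called (0.44 ± 0.16, edgeR adjusted p = 0.0548). Because these genes share an mRNA, their counts are not read as levels of separate transcripts. The difference between their estimates was not tested.

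No mitochondrial subunit of complex IV was called in SCR. MT-CO3 was at 7924, 7807 and 7230.4 CPM without LPS and lower, at 6879, 6232 and 7081 CPM, in each LPS library, which did not pass the test (-0.19 ± 0.07, edgeR adjusted p = 0.0875). The estimates for MT-CO1 and MT-CO2 were 0.20 and -0.02, in that order. That of MT-CO2 changed sign without unstimulated replicate 1 (0.06), LPS replicate 5 (0.02) or LPS replicate 6 (0.01).

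Of the nuclear genes that fell in SCR, ATP5IF1, the inhibitor of ATP hydrolysis by ATP synthase, had the smallest p: it stood at 391, 320.4 and 358 CPM without and 246, 267 and 257 CPM with LPS (a log2 difference of -0.47 ± 0.08, edgeR adjusted p = 0.000538), with no overlap. ATP5MG fell from 1682, 1424 and 1409 CPM to 1181, 1295 and 1286 CPM (a log2 difference of -0.26 ± 0.08, edgeR adjusted p = 0.0239), and ATP5F1B, the catalytic beta subunit, by -0.33 on the log2 scale. NDUFA8 fell from 67.7, 50.9 and 59.9 CPM to 42.4, 47.3 and 44.2 CPM (a log2 difference of -0.42 ± 0.13, edgeR adjusted p = 0.0264), again with no overlap. NDUFS3, a core subunit of the hydrophilic arm, changed by -0.33 ± 0.10 and NDUFS4, an accessory subunit needed for stability of that arm, by -0.43 ± 0.13 (edgeR adjusted p = 0.0294 and 0.0323). COX5B, a zinc-binding subunit of complex IV, changed by -0.27 ± 0.09 (edgeR adjusted p = 0.0469). Leaving out LPS replicate 4, the shallowest library, brought the mitochondrial count to 3, the mitochondrial median to 0.36 and the nuclear count to 1. Without unstimulated replicate 1 the nuclear count was also 1, without unstimulated replicate 2 the mitochondrial count was 5, without unstimulated replicate 3 the counts were 5 and 4, and without LPS replicate 6 the nuclear count was 3. MT-ND2, MT-ND5, MT-ATP8 and ATP5IF1 were called in all 6 of these fits.

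In KD cells LPS raised MT-CYB and MT-ND6 and lowered ATP5IF1. These were the 2 of 13 mitochondrial genes and the 1 of 86 nuclear genes called, where 11.5% of all genes were called, 6.41% higher and 5.05% lower. The medians were 0.32 and -0.06. Libraries did not overlap for 3 mitochondrial genes, 2 higher and 1 lower, against 12.8% of all genes higher and 12.7% lower, and for 12 nuclear genes, 1 higher and 11 lower.

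MT-CYB rose in KD from 1323, 1257 and 1076 CPM to 1473, 1626 and 1703 CPM (a log2 difference of 0.39 ± 0.12, edgeR adjusted p = 0.0329), with no overlap. MT-ND6 was at 55.9, 95.8 and 59.2 CPM and 104, 93.7 and 108 CPM (a log2 difference of 0.54 ± 0.17, edgeR adjusted p = 0.0492), and here unstimulated replicate 2 reached the LPS range. MT-ND1, at 5809, 7025 and 4509 CPM without and 6363, 7304 and 7965 CPM with LPS, was not called (0.32 ± 0.18, edgeR adjusted p = 0.268), and its groups overlapped. Nor were MT-ND2 (0.29), MT-ND3 (0.21), MT-ND4 (0.35), MT-ND4L (0.48), MT-ND5 (0.46), MT-CO1 (0.21), MT-CO2 (0.05), MT-CO3 (-0.19), MT-ATP6 (0.24) or MT-ATP8 (0.72). As in WT and SCR, the estimates of all 7 mitochondrial subunits of complex I were positive, and the lowest of the 13 was that of MT-CO3. The nuclear gene called was ATP5IF1, at 336, 340.2 and 359 CPM without and 293, 268 and 283 CPM with LPS (a log2 difference of -0.30 ± 0.08, edgeR adjusted p = 0.0269). It fell in SCR and KD cells, and in WT it was at 328, 377 and 354 CPM and 293, 307 and 326 CPM and was not called (-0.19 ± 0.08, edgeR adjusted p = 0.145).

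The KD counts depended on single libraries. Without unstimulated replicate 1, 19 nuclear genes were called, 16 higher and 3 lower, and without unstimulated replicate 2 none was, while 4 mitochondrial genes were. Without unstimulated replicate 3 or LPS replicate 5 no member was called, and without the former the mitochondrial median was 0.21. Without LPS replicate 6 no mitochondrial gene was called, and without LPS replicate 4 there was 1. The share of all genes called in these fits is not given. A change in the members therefore cannot be told apart from one in the number of calls among all genes.

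**Figure D3:**
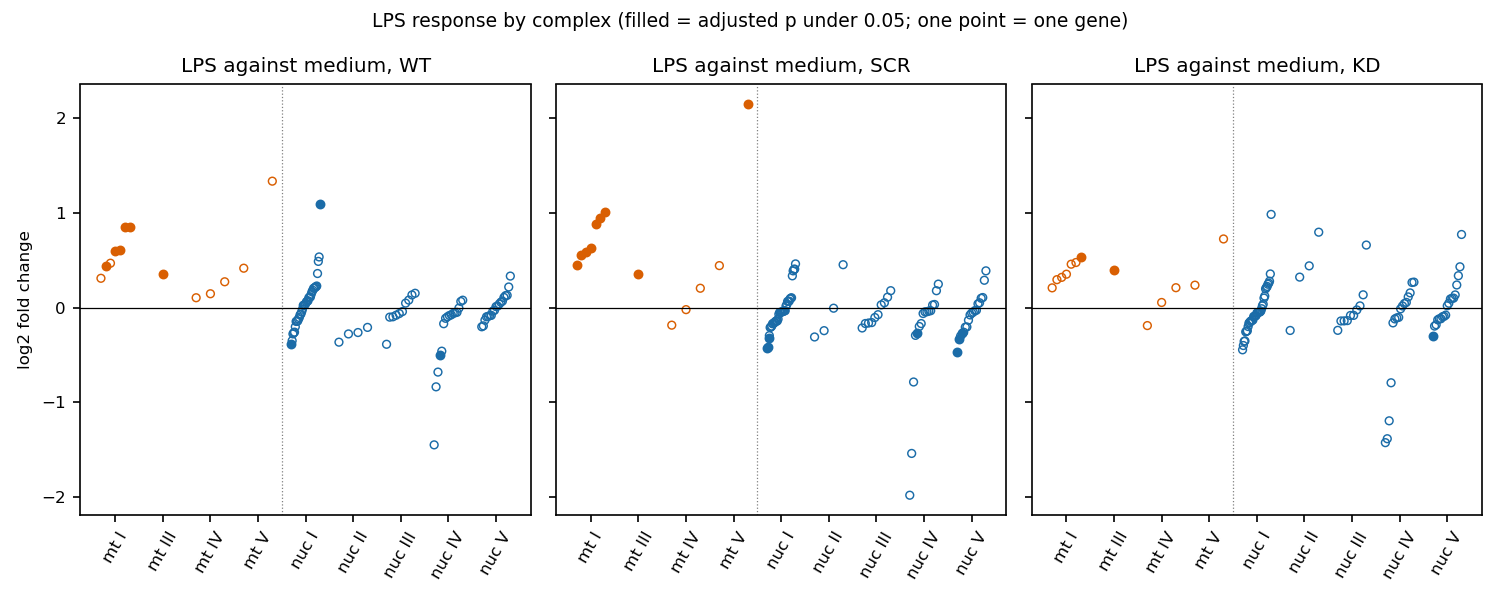
Log2 fold change with LPS of each tested gene in WT, SCR and KD cells, by complex, mitochondrial (mt) genes in orange and nuclear (nuc) genes in blue; filled points have an adjusted p under 0.05. The medians of the mitochondrial genes were 0.43, 0.55 and 0.32 and those of the nuclear genes -0.04, -0.05 and -0.06.

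Whether the LPS response differed between treatments was tested in the same model. For SCR minus WT no member was called, with 0.234% of all genes called, and at an unadjusted p under 0.05 there were 1 mitochondrial and 7 nuclear genes. For KD minus SCR no member was called and 0% of all genes were, with 2 mitochondrial and 3 nuclear genes at an unadjusted p under 0.05. No member passed with DESeq2 in either difference. The median difference of the mitochondrial genes was 0.03 for SCR minus WT and -0.21 for KD minus SCR, where 10 of 13 estimates were negative. The nuclear medians were -0.07 and 0.06. MT-ND2 differed by -0.58 ± 0.22 (edgeR adjusted p = 0.603) and MT-ATP8 by -1.42 ± 0.63 (adjusted p = 0.637) between KD and SCR, so a smaller mitochondrial response in KD was not shown by the test. Leaving out 1 library moved the mitochondrial median over -0.18 to 0.20 for SCR minus WT and over -0.35 to -0.04 for KD minus SCR, with LPS SCR replicate 4 left out at -0.18 and -0.04. The LPS responses of SCR enter both differences.

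Next, the knockdown was compared with the non-targeting siRNA. In unstimulated cells no member was called and 0.066% of all genes were. Of the mitochondrial estimates 12 of 13 were positive, with a median of 0.31, against 0.04 over the nuclear and -0.01 over all genes. The unadjusted p was under 0.05 for 8 mitochondrial and 8 nuclear genes, and DESeq2 calls numbered 2 and 4. The share of all genes is not given for either count, so no result about the members is drawn from them. MT-ND2 was nearest to a call, at 2939, 3574 and 2819.5 CPM in KD and 1593, 1963 and 1863 CPM in SCR (a log2 difference of 0.78 ± 0.16, edgeR adjusted p = 0.0599). MT-ND1 stood at 5809, 7025 and 4509 CPM and 4118, 3449.9 and 3327 CPM (a log2 difference of 0.67 ± 0.18, edgeR adjusted p = 0.105). KD and SCR libraries did not overlap in either gene, as in 6 mitochondrial genes in all, each higher in KD, where 6.45% of all genes did so. Of the nuclear genes 6 were higher and 4 lower in KD without overlap, and of all genes 8.63% were lower in this way. MT-ATP6 (0.45 ± 0.16), MT-ND4 (0.40 ± 0.14) and MT-ND5 (0.47 ± 0.21) had positive estimates too, and MT-ND6 was the exception at -0.25 ± 0.17. KD replicate 2 was the highest library for MT-ND1, MT-ND2, MT-ND5 and MT-ATP8, and without it the mitochondrial median was 0.22. Without KD replicate 1, 1 mitochondrial gene was called.

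With LPS, KD and SCR did not differ in any called gene, member or other (0%). The mitochondrial median was 0.18, from 0.05 without SCR replicate 5 to 0.33 without SCR replicate 4, and the nuclear median was 0.08. The unadjusted p was under 0.05 for 2 mitochondrial and 21 nuclear genes, while with DESeq2 no mitochondrial and 3 nuclear genes passed, again without the share of all genes. Libraries did not overlap for 29 nuclear genes, 21 higher and 8 lower in KD, where 10.8% of all genes were higher and 10.7% lower in this way. Non-targeting siRNA against WT gave no called member either, without LPS (3.23% of all genes called, 1 mitochondrial and 7 nuclear genes at an unadjusted p under 0.05, 0 and 1 by DESeq2) or with LPS (0.114% called, 0 and 8 at an unadjusted p under 0.05, none by DESeq2). The mitochondrial medians were 0.05 and 0.10 and the nuclear ones 0.02 and -0.02. The sign of the mitochondrial medians turned without WT replicate 2 (-0.03) or SCR replicate 1 (-0.01) in unstimulated cells and without SCR replicate 4 (-0.11) with LPS, where the highest value was 0.24 without SCR replicate 5. Replicate 4 was the highest LPS library of its group for 11 of the 13 mitochondrial genes in WT and for 12 in SCR.

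Against WT, KD cells had called members in both conditions. These comparisons use the same KD libraries as those with SCR and differ from them in the control. They carry the siRNA as well as any effect of its target. TRAFD1 itself was lower in KD than in WT without LPS (a log2 difference of -1.23 ± 0.23, edgeR adjusted p = 0.00156). With LPS it was not called (-0.23 ± 0.23, edgeR adjusted p = 0.563). There the KD libraries, at 13.8 to 15.8 CPM, lay within the WT range of 11.6 to 20.3 CPM. Without LPS, 5 of 13 mitochondrial genes were called, all higher in KD, and 9 of 86 nuclear genes, 8 higher and 1 lower, where 11.7% of all genes were called, 5.85% in each direction. The medians were 0.33 and 0.05. Libraries did not overlap for 5 mitochondrial genes, all higher, and 19 nuclear genes, 12 higher and 7 lower, against 10.8% and 13.5% of all genes.

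MT-ND2 was called at 0.83 ± 0.16 and MT-ND1 at 0.79 ± 0.18 (edgeR adjusted p = 0.00156 and 0.00681), with the library values given above. MT-ATP6 was at 1142, 926 and 1104 CPM in WT and 1478, 1788 and 1307 CPM in KD (a log2 difference of 0.53 ± 0.16, edgeR adjusted p = 0.0314). Here complex IV was among the called: MT-CO2 was at 3255, 2848 and 2651 CPM and 3658, 3735 and 3591 CPM (a log2 difference of 0.33 ± 0.09, edgeR adjusted p = 0.0155), and MT-CO3 was at 7262, 8172 and 8499.7 CPM in KD, where replicate 1 lay within the WT range (a log2 difference of 0.25 ± 0.07, edgeR adjusted p = 0.0328).

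Of the 9 nuclear genes called without LPS, 8 belong to complex I, which holds 38 of the 91 nuclear genes. The share of nuclear genes called was near the 11.7% of all genes, so no result about complex I is drawn. NDUFA13, also known as GRIM-19, was at 6.67, 14.6 and 8.09 CPM in WT and 16.9, 19.8 and 27.4 CPM in KD (a log2 difference of 1.15 ± 0.24, edgeR adjusted p = 0.0035). NDUFB7, an intermembrane space subunit, was at 5.82, 7.99 and 9.34 CPM and 12.4, 16.5 and 21.4 CPM (a log2 difference of 1.11 ± 0.24, edgeR adjusted p = 0.0043), and NDUFA7 at 2.54, 4.54 and 2.36 CPM and 5.44, 7.68 and 7.78 CPM (a log2 difference of 1.18 ± 0.28, edgeR adjusted p = 0.00878). These were among the least abundant subunits, and WT and KD libraries did not overlap in any of them. NDUFV2 was at 3.84, 5.45 and 2.76 CPM and 8.86, 8.51 and 8.09 CPM (a log2 difference of 1.11 ± 0.26, edgeR adjusted p = 0.00747). Most reads of that name fall on its pseudogenes, as given above. The call outside complex I was ATP5MF, a membrane subunit of ATP synthase (a log2 difference of 0.49 ± 0.11, edgeR adjusted p = 0.00613). NDUFS7, NDUFA12 and NDUFA6 were higher as well, by 0.75, 0.42 and 0.29 on the log2 scale. NDUFA8 was lower, at 41.7, 35.4 and 47.7 CPM in KD (a log2 difference of -0.66 ± 0.13, edgeR adjusted p = 0.00195), and every KD library lay below every WT library. Without WT replicate 3 the mitochondrial count was 2 and the nuclear count 3, and MT-ND1, MT-ND2, NDUFA13, NDUFB7 and NDUFA8 were called in all 6 fits that left out a library.

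With LPS, 3 of 13 mitochondrial genes were called against WT, 2 higher and 1 lower, and 17 of 86 nuclear genes, 11 higher and 6 lower, where 10.8% of all genes were called, 6.29% higher and 4.55% lower. The medians were 0.21 and 0.07, and leaving out 1 library took the mitochondrial one from 0.14 without WT replicate 6 to 0.40 without WT replicate 4. Libraries did not overlap for 5 mitochondrial genes, 4 higher and 1 lower, and 50 nuclear genes, 28 higher and 22 lower, against 18.6% of all genes higher and 16.4% lower. MT-ND2 was at 3203, 2568 and 2225 CPM in WT and 3447, 3815 and 4184 CPM in KD (a log2 difference of 0.52 ± 0.15, edgeR adjusted p = 0.0361), and MT-CYB at 1397, 1191 and 1106 CPM and 1473, 1626 and 1703 CPM (a log2 difference of 0.38 ± 0.12, edgeR adjusted p = 0.0419). MT-ND6 was lower in KD, at 186, 128 and 133 CPM in WT and 104, 93.7 and 108 CPM in KD (a log2 difference of -0.55 ± 0.17, edgeR adjusted p = 0.044). With the reads of its nuclear copies added, its adjusted p was 0.397. All 3 calls were lost in at least 1 fit that left out a library: none remained without WT replicate 6, KD replicate 5 or KD replicate 6, and 1 without WT replicate 5.

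The nuclear genes higher in KD with LPS came from every complex. UQCRHL, a hinge protein paralog of complex III, was at 16.9, 18.05 and 15.2 CPM in WT and 44.2, 45.2 and 41.1 CPM in KD (a log2 difference of 1.38 ± 0.28, edgeR adjusted p = 0.00504). COX7A2, a subunit of complex IV, was at 428, 449 and 437 CPM and 677, 659.6 and 599 CPM (a log2 difference of 0.56 ± 0.12, edgeR adjusted p = 0.00622), and NDUFA12, an accessory subunit of complex I, at 40.3, 40.02 and 41.5 CPM and 63.8, 60.9 and 58.00 CPM (a log2 difference of 0.58 ± 0.13, edgeR adjusted p = 0.01). In these 3 genes the KD libraries lay well above the WT libraries, and the calls held in all 6 fits that left out a library. UQCRHL is a near-copy of UQCRH, so its reads are uncertain. ATP5MK, a small membrane subunit of ATP synthase, was at 127, 129 and 95.7 CPM and 211, 232 and 214 CPM (a log2 difference of 0.90 ± 0.21, edgeR adjusted p = 0.0106). NDUFB3 was at 59.4, 57.6 and 28.3 CPM and 169, 161 and 111 CPM (a log2 difference of 1.60 ± 0.40, edgeR adjusted p = 0.0152), where WT replicate 6 lay below the other 2 WT libraries. SDHD (1.46), ATP5PD (0.95), NDUFB7 (0.82), ATP5F1A (0.80), NDUFC1 (0.65) and COX7A2L (0.39) made up the rest of the 11, each with its log2 fold change in parentheses.

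Of the 6 nuclear genes lower in KD with LPS, ATP5MG was at 1485, 1413 and 1598 CPM in WT and 1288, 1155 and 1129 CPM in KD (a log2 difference of -0.33 ± 0.08, edgeR adjusted p = 0.0117), and ATP5PO, the peripheral stalk subunit that confers sensitivity to oligomycin, at 525, 497 and 523 CPM and 459, 402 and 432 CPM (a log2 difference of -0.26 ± 0.07, edgeR adjusted p = 0.0275). NDUFB8 (-0.40), NDUFA8 (-0.43), NDUFA11 (-0.42) and NDUFB9 (-0.26) are subunits of complex I, each with its log2 fold change. ATP5MG and ATP5PO libraries did not overlap between KD and WT. The nuclear count was 3 without WT replicate 6, 4 when KD replicate 5 was left out, 10 for KD replicate 6, and 11 for WT replicate 4 or KD replicate 4.

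**Figure D4:**
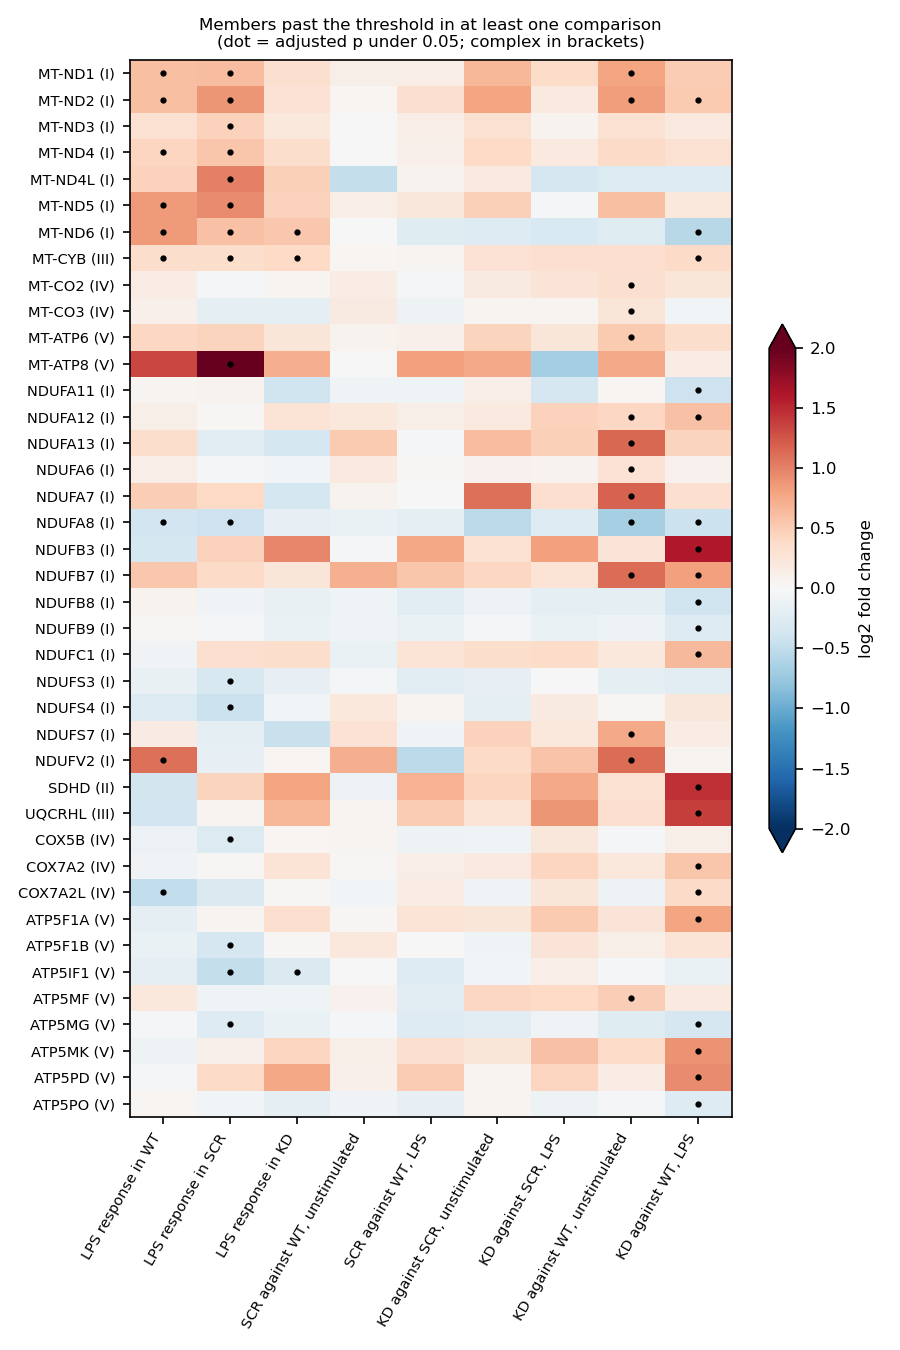
Log2 fold change, as colour from -2 to 2, of the 40 members (12 mitochondrial, 28 nuclear) past the threshold in at least 1 of 9 comparisons, with a dot where the adjusted p was under 0.05; the complex is in brackets. Comparisons that share a group are not independent, and NDUFA8 has dots in 4 columns, all with lower values.

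The nuclear genes higher in KD with LPS were looked at across all 18 libraries, after their values had been seen and so as a description alone. NDUFB3 was at 134, 28.1 and 60.2 CPM in the unstimulated KD libraries 1 to 3, a wide range within 1 group, and at 83.4, 112 and 54.3 CPM in LPS SCR. SDHD, the other membrane anchor of complex II, was at 24.8, 6.03 and 10.03 CPM in unstimulated KD, 10.4, 10.9 and 4.50 CPM in LPS WT and 24.5, 26.7 and 20.3 CPM in LPS KD. ATP5PD, a stalk subunit, was at 149.9, 56.9 and 75.9 CPM, 93.98, 99.7 and 56.4 CPM and 168, 167 and 148 CPM in the same groups. The 3 genes were high together in unstimulated KD replicate 1 and in all LPS KD libraries, and low together in unstimulated KD replicate 2 and LPS WT replicate 6. ATP5F1A, the alpha subunit of ATP synthase, showed the same order at 346, 166 and 211 CPM in unstimulated KD. UQCRHL did so at 43.3, 16.3 and 22.7 CPM. COX6C, at 1394, 754 and 906 CPM in unstimulated KD and 1042, 1047 and 777 CPM in LPS WT, and SDHC, at 145, 61.8 and 97.7 CPM and 102, 117 and 62.1 CPM, were also lowest in these 2 libraries. The mitochondrial genes did not share this order, since MT-ND1 was highest in unstimulated KD replicate 2.

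**Figure D5:**
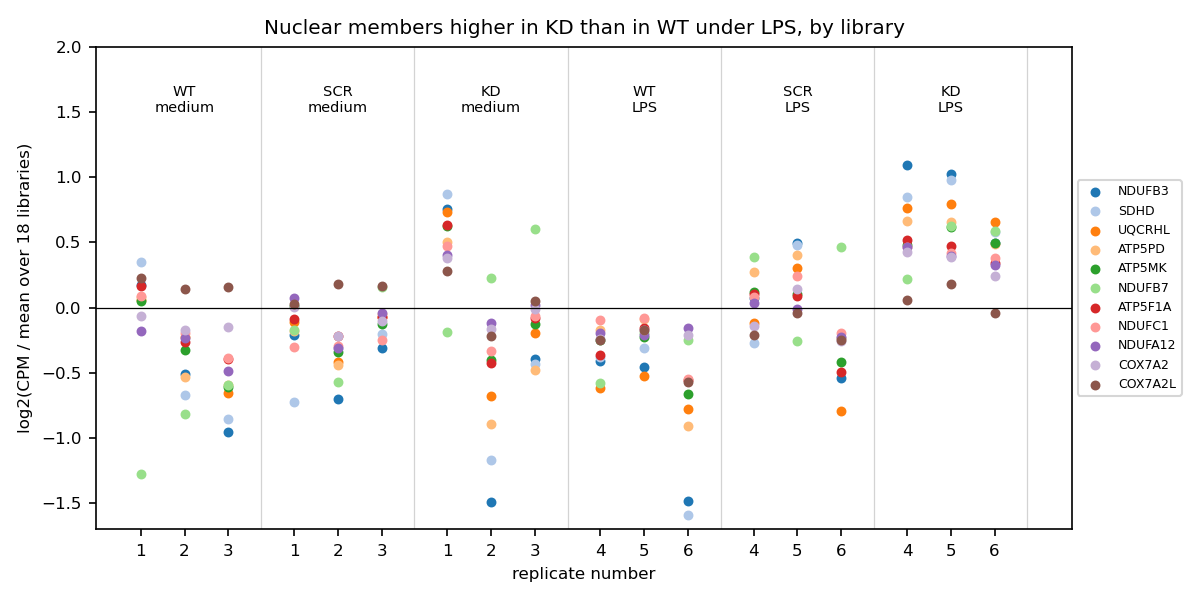
Level of the 11 nuclear genes called higher in KD than in WT with LPS, as log2 of CPM over the gene's mean of 18 libraries, by library and group; the genes were chosen on the WT and KD libraries with LPS. Values ran from -1.59 to 1.09, unstimulated KD replicate 2 and LPS WT replicate 6 were low in most of them, and the LPS KD libraries were high in most.

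NDUFA4, the complex IV subunit that gives way to its paralog C15orf48 in inflammatory cells, was not called in any comparison. It was at 101 to 148 CPM without and 103 to 141 CPM with LPS. C15orf48 itself stayed low, at 1.45 to 3.45 CPM in unstimulated WT, 1.77 to 2.65 CPM in SCR and 0.330 to 1.41 CPM in KD, and 0.900 to 2.76 CPM with LPS. It was lower in KD than in WT without LPS (a log2 difference of -1.46 ± 0.47, edgeR adjusted p = 0.0496), on 4 to 21 counts per KD library.

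Other genes of the pathway were taken from a list of 85, of which 84 were in the table and 82 were tested. It holds 49 assembly factors, 26 genes of mitochondrial DNA and RNA, 8 regulators of nuclear respiratory genes, and cytochrome c and C15orf48. With LPS, 2 were called higher and 2 lower in WT, 3 and 3 in SCR, and 4 and 2 in KD, or 4, 6 and 6 of 82, against 14.3%, 17.2% and 11.5% of all genes, and the medians over the list were 0.00, -0.03 and 0.02. Called in all 3 were PNPT1, the mitochondrial polynucleotide phosphorylase that degrades RNA, and PPRC1, a coactivator of respiratory gene transcription. PNPT1 went from 47.8 to 50.9 CPM to 68.2 to 89.1 CPM in WT, from 30.5 to 43.1 to 75.2 to 89.03 CPM in SCR and from 38.2 to 55.3 to 81.2 to 95.5 CPM in KD, with log2 fold changes of 0.62 ± 0.14, 1.08 ± 0.15 and 0.89 ± 0.14 (edgeR adjusted p = 0.00495, 2.31e-05 and 0.000245). PPRC1 changed by 1.06 ± 0.14, 0.60 ± 0.13 and 0.66 ± 0.13 (edgeR adjusted p = 9.74e-06, 0.00345 and 0.00221). In both genes LPS libraries lay above unstimulated ones of their treatment.

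Also higher with LPS were COX20 of complex IV assembly in SCR (0.54), and in KD CYCS, the electron carrier between complexes III and IV (0.38), and GABPB1, a subunit of a regulator of nuclear respiratory genes (0.53), each as log2 fold change. TFB1M, which methylates mitochondrial ribosomal RNA, fell in SCR (-0.63 ± 0.18, edgeR adjusted p = 0.0157) and KD (-0.56 ± 0.17, adjusted p = 0.0401). The other genes that fell with LPS were the assembly factor SDHAF1 (-0.72) and POLG, the polymerase of mitochondrial DNA (-0.36), in WT, COA5 (-0.62) and MTERF1 (-0.60) in SCR, and TOP1MT, the mitochondrial topoisomerase (-0.29), in KD. In unstimulated SCR against WT, PPRC1 (0.65), COA7 (1.14) and COA4 (0.47) were higher. No gene of the list was called in KD against SCR in either condition, in SCR against WT with LPS, or in the differences of the LPS response.

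Against WT, 7 genes of the list were higher and 2 lower in KD without LPS, 9 of 82 where 11.7% of all genes were called. Among them the assembly factors NDUFAF3 (0.48) and UQCC3 (0.56), PPRC1 (0.66) and SSBP1, which binds single-stranded mitochondrial DNA (0.42), were higher, and FASTKD1 (-0.35) and C15orf48 were lower. With LPS 9 were higher and 4 lower, 13 of 82 against 10.8% of all genes. The higher included TMEM242 (1.14) and COA6 (0.79), assembly factors of complexes V and IV, GABPA, the DNA-binding partner of GABPB1 (2.12), and SSBP1 (0.42), and the lower were NDUFAF8 (-0.43), COX14 (-0.44), TOP1MT (-0.34) and FASTKD5 (-0.40), which processes mitochondrial RNAs.

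The nuclear promoters were searched for the palindromic motif GCGCATGCGC, the core of sites of the regulator NRF1, which reads the same on both strands. In RefSeq (GRCh38.p14), 71 of the 91 nuclear genes had a promoter sequence from 250 bases before to 50 bases after the start. The motif was in 4 of them (5.63%), ATP5F1C, NDUFA8, NDUFB4 and SDHD, and in 435 of 35116 promoters of all genes (1.24%). Of these 4, NDUFA8 was lower with LPS in WT and SCR and lower in KD than in WT, SDHD was higher in KD than in WT with LPS, and ATP5F1C and NDUFB4 were not called in any comparison. Members were counted with 1 promoter per symbol. The count over all genes took every promoter listed, with no limit to protein-coding genes, so these shares are not compared. A match is a string of letters and not an occupied site.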

How the data were processed

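RNA of THP-1 cells was sequenced as 3′ tags. The authors deposited raw counts per gene, which per the labels and the study's methods were made with HISAT and featureCounts on GRCh37, after trimming of poly(A), with an Ensembl annotation cut to a short stretch per gene. The methods name that stretch as both last and 5′, so which end was counted is unclear. Whether strand was used and how reads with several alignments were treated are not given in the sources used here. The counts were not normalized by the authors. Columns of 18 libraries matched the sample titles.

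The members and gene lists were chosen with earlier results of these data known. Genes were kept by edgeR's filterByExpr over the 6 groups (16678 of 63677), scaled by TMM, and fitted in 1 quasi-likelihood model of 6 groups (edgeR 4.0.16, R 4.3.3), with 11 contrasts and Benjamini-Hochberg adjustment in each (threshold 0.05). The common biological coefficient of variation was 0.170, with 8.83 median prior degrees of freedom. The depth of 8206023 to 22344279 counts per library sets a floor of 3 counts for a gene at 0. Counting error and replicate spread both enter the p-values.

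Named were TRAFD1, the 13 mitochondrial genes, in each contrast in each direction up to 5 nuclear genes of lowest adjusted p, the most abundant nuclear gene of each complex, isoforms and readthroughs, NDUFA4 with C15orf48, and up to 4 other pathway genes per direction and contrast. Named pseudogenes were matched by symbol. SCO2 of the pathway list and PECAM1 of the marker lists found no match, and they and some other genes are not reported here.

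Groups share replicate numbers. Deviations from the group means correlated between same-numbered libraries at over 0.1 in all 3 pairs of LPS WT and SCR (0.261, 0.163 and 0.253), so those numbers were taken as pairs, and in the other comparisons not in every pair (-0.0875 to 0.304). Alternatives were DESeq2 1.42.0, no filter, scaling without mitochondrial genes, a correction for GC content (known for 97.3% of the tested genes), replicate number as a block, each library left out in turn, other make-ups of the sets, and, chosen after seeing the data, the addition of nuclear copies. The fitting code was tested on simulated counts. Python 3.11.15 and matplotlib 3.10.9 drew the figures.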

Additional observations from a re-analysis of the deposited data

How the results depend on the processing

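Of the 62 calls of members, none changed direction under any alternative. DESeq2 kept all 62, scaling without mitochondrial genes lost 4, the correction for GC content 10, the fit without a filter 9, the addition of nuclear copies 1 (MT-ND6 in KD against WT with LPS), and leaving out 1 library lost 48 in at least 1 fit. The mitochondrial medians of the LPS responses in WT, SCR and KD kept their sign under all of them, whereas those of SCR against WT and of the SCR minus WT difference changed sign in some fits without 1 library, the latter also under the GC correction (-0.02). The fit without a filter tested 34092 genes and gave all of them the spread of the trend, so a gene's own spread did not enter its p-values.

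Without a filter, the called mitochondrial genes were 10 for LPS in WT, 8 for LPS in KD, 1 and 2 for SCR against WT without and with LPS, 7 and 3 for KD against SCR, 10 and 6 for KD against WT, and 1 and 2 for the differences of the LPS response, SCR minus WT and KD minus SCR. The called nuclear genes were then 8 for LPS in KD, 1 and 3 for SCR against WT, 3 and 8 for KD against SCR, and 2 for each difference. DESeq2 gave 4 nuclear genes for LPS in KD, 1 for SCR against WT without LPS, 2 mitochondrial and 4 nuclear genes for KD against SCR without LPS, and 3 nuclear genes for it with LPS. Scaling without mitochondrial genes gave 1 mitochondrial gene for LPS in KD, 1 nuclear gene for SCR against WT and 1 mitochondrial gene for KD against SCR, both without LPS. The GC correction gave 1 mitochondrial and 2 nuclear genes for LPS in KD, 1 mitochondrial gene for KD against SCR without LPS and 1 for KD against WT with LPS. The estimate of MT-CO2 with LPS, not called, turned to -0.0081 in KD under the GC correction, and in SCR to 0.055, 0.017 and 0.0081 without unstimulated replicate 1, LPS replicate 5 and LPS replicate 6, the lowest value in SCR being -0.10 without unstimulated replicate 2. Except for the spread in the fit without a filter, the cause was not tested. Shares of all genes called under the alternatives are not given, so these counts do not compare members with other genes.

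With the replicate block, SCR against WT with LPS, whose numbers were taken as pairs, had no called member, as without it. In the comparisons whose samples share only a number, the block gave 2 nuclear genes for SCR against WT without LPS, 2 mitochondrial and 1 nuclear gene for KD against SCR without and 3 nuclear genes with LPS, and 8 and 5 mitochondrial genes for KD against WT without and with LPS, and none of the 34 calls made in these comparisons without the block was lost.

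Leaving out 1 library, the mitochondrial counts ran from 1 to 7 for LPS in WT, 3 to 10 in SCR and 0 to 4 in KD, 0 to 1 for KD against SCR without LPS, and 2 to 7 and 0 to 3 for KD against WT without and with LPS. The nuclear counts ran from 1 to 5, 1 to 7 and 0 to 19 for LPS in WT, SCR and KD, 0 to 3 for SCR against WT without LPS, 3 to 9 and 3 to 16 for KD against WT without and with LPS, and 0 to 1 for the SCR minus WT difference. With 3 libraries a group, and a shallowest library of 8206023 counts, absence of a call does not show equal levels, least of all in the 11 nuclear genes under 10 CPM.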
